A study of Cricetiscus sungorus with 24 samples.

Results

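The mitochondrial carrier family Slc25 was followed in the kidney of the Siberian hamster across photoperiod and after prolactin (PRL). Members were all genes whose listed name began with Slc25a and a number, and each was represented by its transcript with the highest total of reads. The rule used names and totals and no comparison between groups. It found 27 of 9681 genes listed in experiment 1 and 39 of 15842 in experiment 2. All 27 members of experiment 1 were also listed in experiment 2, where 12 more appeared. Slc25a5 was among the genes the study itself displayed from these samples, so its values here are not independent evidence of a direction.

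Kidney RNA was read as nanopore cDNA in 24 libraries, 1 per animal, and mouse transcripts served as the reference. In experiment 1 adult males stayed in a long photoperiod (LP, 16 h of light, n = 4) or spent 12 weeks (SP12wk, n = 4) or 28 weeks (SP28wk, n = 4) in a short photoperiod (SP, 8 h of light). In experiment 2 adult females had spent 8 weeks in SP and then received daily intraperitoneal injections for 3 days. The injections held vehicle alone, dimethyl sulfoxide with saline (SAL, n = 6), or 18 µg PRL in that vehicle (PRL, n = 6). The labels give no altered genotype for any group. Each experiment filled 1 flow cell, and only the animals of experiment 2 were injected. Sex, flow cell, depth, injection and time in SP thus cannot be told apart between experiments, and every test was made within 1 experiment. The p-values measure the spread between these animals.

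Mitochondrial carriers are nuclear-encoded proteins of the inner mitochondrial membrane, and a few sit in other membranes such as that of the peroxisome. They exchange nucleotides, phosphate, carboxylic acids, amino acids and cofactors between matrix and cytosol. Proximal tubule cells are rich in mitochondria, and they export ATP through the ADP/ATP carriers to power the reabsorption of sodium and solutes.

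Levels are given in CPM, the reads of a gene per 1000000 reads of its library, with 1 transcript counted per gene. The library total was 15687 to 57584 counts in experiment 1, so 1 read was worth 17.4 to 63.7 CPM. In experiment 2 it was 174052 to 756522, and 1 read was worth 1.32 to 5.75 CPM. A library of experiment 1 held reads of 6 to 15 members, and a library of experiment 2 held reads of 25 to 35. For a member without a read, a limit of 3 counts allowed 52.1 to 191 CPM in experiment 1 and 3.97 to 17.2 CPM in experiment 2, and these limits cover counting error only. Transcript lengths were not used here, so an order of members is an order of reads and not of transcript abundance. Libraries of a group differed unequally. SAL replicate 6 differed from the other SAL libraries by a chi-square per degree of freedom of 6.16 to 10.1, against 2.13 to 5.03 among the others. LP replicate 2 differed from the other LP libraries by 4.32 to 9.45, against 3.49 to 4.00 among them. Values with and without both are given where they matter. In whole kidney, fewer cells of a type and less RNA per cell cannot be told apart.

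Reads of the family came mostly from 3 members. Slc25a5 and Slc25a4, which exchange ADP for ATP, and Slc25a3, which brings phosphate into the matrix for ATP synthesis, held 79.6% to 94.8% of the family's reads in a library of experiment 1. In experiment 2 they held 75.9% to 83.6%. Together all members came to 3753 ± 808 CPM in LP (SD, n = 4). The sum was 2917 ± 444 CPM in the SP12wk group and 3213 ± 449 CPM after 28 weeks. The sums were 2929 ± 646 CPM in SAL (SD, n = 6) and 3141 ± 576 CPM in PRL. SAL replicate 6 had the lowest sum of experiment 2, at 2010 CPM, and without it the SAL libraries came to 3113 ± 518 CPM (SD, n = 5). The LP libraries came to 3565 ± 876 CPM without LP replicate 2 (SD, n = 3). Within each experiment the ranges of these sums overlapped between groups. The sums were scaled by library totals alone, without the TMM factors that rescaled each library in the tests. In experiment 1 these factors were highest in LP replicates 2 and 3 (1.41 and 1.25) and lowest in SP28wk replicate 4 (0.770). A higher factor lowers a level, so the means above do not set LP above SP28wk.

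Slc25a5 had the most reads of the family in every group. In LP its 4 libraries stood at 1740.4, 2580.0, 2386 and 1204 CPM, from 157 reads. The 4 SP12wk libraries stood at 1267, 1019.9, 1054 and 1187 CPM, from 110 reads. In SP28wk the values were 1897, 1452, 1171 and 1163 CPM, from 191 reads. The SP12wk libraries lay low and close together, but the highest of them lay above the lowest LP library, and SP28wk overlapped both groups. The log2 fold change of SP12wk against LP was -0.55 ± 0.46 (SE), with a 95% interval of -1.45 to 0.35 (edgeR quasi-likelihood test, adjusted p = 0.801). SP28wk against SP12wk gave 0.45 ± 0.46 (interval -0.44 to 1.35) and SP28wk against LP gave -0.10 ± 0.45 (interval -0.98 to 0.78). Scaled by library totals alone, as the CPM are, these changes were -0.79, 0.31 and -0.48 in the same order. Without LP replicate 2, the highest LP library, SP12wk against LP gave -0.55. These intervals do not show that the groups were alike, since the first one reaches from a fold of 0.365 to one of 1.27.

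Slc25a4, the ADP/ATP carrier best known from heart and skeletal muscle, had fewer reads. Its LP libraries stood at 235, 393, 777 and 427 CPM, from 37 reads. The SP12wk libraries had 572, 510.0, 301 and 367 CPM from 41 reads, and the SP28wk libraries had 356, 332, 486 and 486 CPM from 62 reads. LP held both the lowest and the highest library, and the other groups lay between them. Its log2 fold changes were 0.29 ± 0.50 for SP28wk against LP, 0.15 ± 0.52 for SP12wk against LP and 0.14 ± 0.50 between both SP groups. Each of them turned negative, to between -0.10 and -0.042, when libraries were scaled by their totals alone. The skeletal muscle markers Ckm, Acta1, Myh4 and Myh2 summed to 0 in LP and to at most 41.5 CPM in any library of experiment 1, with no read listed for Ckm, Myh4 or Myh2.

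**Figure D1:**
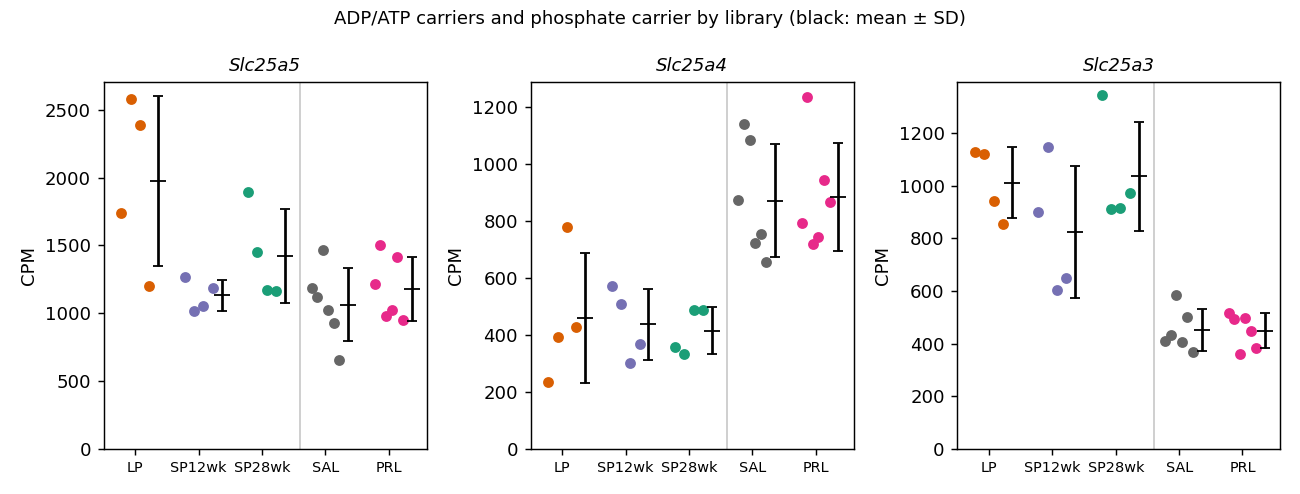
CPM of Slc25a5, Slc25a4 and Slc25a3 in each library (points) by group, with the mean and SD beside the points in black; a grey line parts the experiments, which were not tested against each other. LP libraries of Slc25a5 span 1204 to 2580.0 CPM and SP12wk libraries 1019.9 to 1267 CPM, while SAL and PRL overlap for all 3 genes.

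Slc25a3 stood at 1129, 1122, 943 and 854.5 CPM in LP, from 83 reads. In SP12wk it had 899, 1147, 602 and 649.9 CPM from 75 reads. In SP28wk it had 1344, 913, 914 and 972 CPM from 144 reads. A pair of SP12wk libraries lay below every other library, and another SP12wk library lay above every LP library. The log2 fold changes were 0.37 ± 0.46 for SP28wk against LP, -0.14 ± 0.47 for SP12wk against LP and 0.52 ± 0.46 between both SP groups. Scaled by library totals alone they were 0.031, -0.31 and 0.34, so little of the first difference was left. All 3 intervals held 0, the widest upward reaching 1.42.

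None of the 14 members with enough reads for a test in experiment 1 passed an adjusted p of 0.05 in edgeR, in any of the 3 comparisons. Over all 5086 genes tested, 0.216% passed in SP28wk against LP, 0.0197% in SP12wk against LP and 0.138% between both SP groups. At an unadjusted p under 0.05, 2 of 14 members were counted in SP28wk against LP, 1 in SP12wk against LP and 1 between both SP groups. The share over all genes was 8.61%, 7.27% and 6.1% in that order, so the counts of members lie near the background. DESeq2 gave 0 members at that unadjusted level in all 3 comparisons, and limma-voom gave 2, 1 and 2. A test needed a read in 4 of 12 libraries, and the 13 members left out had 1 to 6 reads each.

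The members behind those unadjusted counts had very few reads. Slc25a39, which carries glutathione into mitochondria, had no read in LP, 0, 2, 0 and 6 reads in SP12wk and 0, 1, 0 and 1 reads in SP28wk. Of its 10 reads, 6 lay in SP12wk replicate 4. Without that library the fitted log2 fold change of SP12wk against LP fell from 4.18 (edgeR, adjusted p = 0.575) to 2.91. Set against a floor of 3 reads over the LP group, its 8 reads in SP12wk gave a lower bound of 2.31-fold the level of LP, scaled by library totals. This bound covers the missing LP reads only and takes the 8 reads as exact. Without SP12wk replicate 4 the reads of Slc25a39 fell under that floor and no bound was left. Of its 6 listed transcripts, 5 had the same counts in experiment 1. Slc25a14, a relative of the uncoupling proteins, had 1, 1, 2 and 1 reads in SP28wk and none in LP or SP12wk. It entered the test only through SP28wk, so its difference follows from the filter and is not counted as support. Slc25a36, a pyrimidine nucleotide carrier, had no read in LP, 2, 0, 0 and 0 in SP12wk and 1, 1, 3 and 1 in SP28wk (SP28wk against LP, edgeR, adjusted p = 0.516). At the same floor its 6 reads in SP28wk gave a lower bound of 1.17-fold the level of LP, again with these reads taken as exact. This bound too was lost without SP28wk replicate 3, which held 3 of those reads. Of the 5 libraries with reads of Slc25a36, 4 were of SP28wk. It thus passed the filter of 4 libraries through that group, and its difference is not counted as support either.

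**Figure D2:**
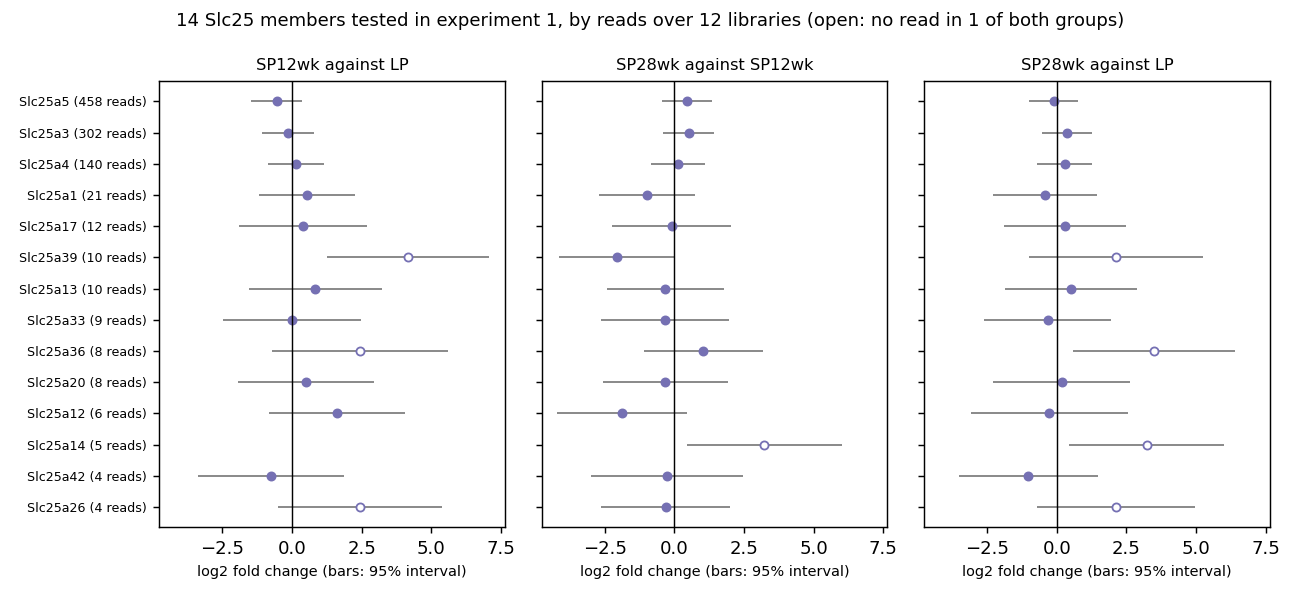
Log2 fold change (x axis) and 95% interval of the 14 members tested in experiment 1, ordered by reads over 12 libraries, for the 3 comparisons; open points mark members without a read in a group, whose fitted value is no bound, and Slc25a14 has no value where neither group had a read. Intervals are narrow for Slc25a5, Slc25a3 and Slc25a4 and wide for the members with 21 reads or fewer.

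The remaining members of experiment 1 were sparse. The citrate carrier Slc25a1, which exports citrate for fatty acid synthesis, had 6 LP reads, 9 SP12wk reads and 6 SP28wk reads. The aspartate/glutamate carriers Slc25a12 and Slc25a13, parts of the malate-aspartate shuttle, had 1, 4 and 1 reads and 2, 4 and 4 reads in the same order. Slc25a20, which brings acylcarnitines in for fatty acid oxidation, had 2, 3 and 3 reads, and Slc25a17, a peroxisomal carrier of cofactors, had 3, 4 and 5. No difference was detected in these members. Reads in this paragraph are not scaled by library total, which differed between libraries, so they do not order the groups. In mean CPM, Slc25a1 had 77.05 in LP, 103 in SP12wk and 31.6 in SP28wk. Slc25a17 had 37.8, 42.4 and 33.8 CPM in the same order. By role, the carriers of nucleotides, cofactors and vitamins had 10 LP reads, 15 SP12wk reads and 19 SP28wk reads (mean CPM 122, 162 and 141). Carriers of di- and tricarboxylates had 6, 12 and 9 reads (mean CPM 77.05, 138 and 44.7). Those of aspartate and glutamate had 5, 8 and 6 reads (mean CPM 61.0, 76.95 and 45.5). Members grouped under other amino acids and glutathione had 1, 8 and 4 reads (mean CPM 9.71, 74.3 and 29.0). That group includes Slc25a48, which had 1 read in SP28wk and whose substrate was not examined here. The mitoferrins had 0, 1 and 1 reads. Fitted fold changes were above 0 for 10 of 14 members in SP12wk against LP, where 52.6% of all genes were. For SP28wk against LP it was 9 of 14 against 58.7%, and between both SP groups 5 of 14 against 58.3%. The median log2 fold change of the members was 0.44, 0.29 and -0.29 in that order, beside 0.00, 0.18 and 0.15 over all genes. With members lacking reads in a group set to their bound or left out, the members' medians were 0.39, 0.07 and -0.29. Counted in that way, 8 of 11 members lay above 0 in SP12wk against LP, 6 of 12 in SP28wk against LP and 5 of 14 between both SP groups. These bounds are lower limits scaled by library totals, while the other values are TMM fold changes, so medians and counts mix both. In SP28wk against LP, Slc25a14 was not counted above 0 because its lower limit was 0.9725-fold. That limit is no decrease, since its reads lay in SP28wk alone.

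The make-up of the family's reads was also described by library, after its values had been seen and without a test. Members other than Slc25a3, Slc25a4 and Slc25a5 held 8.28% of the family's reads in LP (25 of 302 reads). The SP12wk group held 17.8% (49 of 275), and the SP28wk group 10.8% (48 of 445). The share of the 3 abundant carriers was 79.6% to 84.0% in the SP12wk libraries, below the 84.6% to 94.8% of LP and the 86.7% to 92.9% of SP28wk. The lowest LP library and the highest SP12wk library thus lay close together, at 84.6% (95% Wilson interval 75.0% to 91.0%) and 84.0%. The mean level of Slc25a5, the carrier with the most reads, was lowest in the SP12wk group. This is no separate result, since its reads are part of that share.

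In experiment 2 the depth was larger and 30 of the 39 members could be tested. None passed an adjusted p of 0.05 between PRL and SAL in edgeR, DESeq2 or limma-voom, and neither did any of the 10696 genes tested, a share of 0%. At an unadjusted p under 0.05, 1 of 30 members was counted in edgeR, against 4.88% of all genes (522), and the count was 1 in DESeq2 and 2 in limma-voom. A test needed a read in 6 of 12 libraries, and the 9 members left out had 1 to 14 reads.

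The ADP/ATP and phosphate carriers had narrow intervals in this comparison. Slc25a5 ranged from 656 to 1466 CPM in SAL with a median of 1072, from 2243 reads, and from 950.1 to 1503 CPM in PRL with a median of 1121, from 2914 reads. The groups overlapped over most of their range, and the log2 fold change was 0.10 ± 0.19 (interval -0.28 to 0.48). Slc25a4 ranged from 656 to 1139 CPM in SAL (median 813) and from 719.6 to 1236 CPM in PRL (median 830.0). Its log2 fold change was -0.025 ± 0.190 (interval -0.41 to 0.36). Slc25a3 ranged from 368 to 585 CPM in SAL (median 423) and from 359.8 to 518 CPM in PRL (median 471), with a log2 fold change of -0.052 ± 0.187 (interval -0.43 to 0.33). For these 3 genes the intervals leave room for folds between 0.742 and 1.39 after PRL. SAL replicate 6 was the lowest SAL library for all 3 genes. Without it the SAL means were 1145 ± 204 CPM for Slc25a5, 914 ± 190 CPM for Slc25a4 and 468 ± 75.7 CPM for Slc25a3 (SD, n = 5), and the log2 fold changes were 0.0038, -0.079 and -0.087. The signs of Slc25a4 and Slc25a3 turned to 0.025 and 0.0014 when libraries were scaled by their totals alone.

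**Figure D3:**
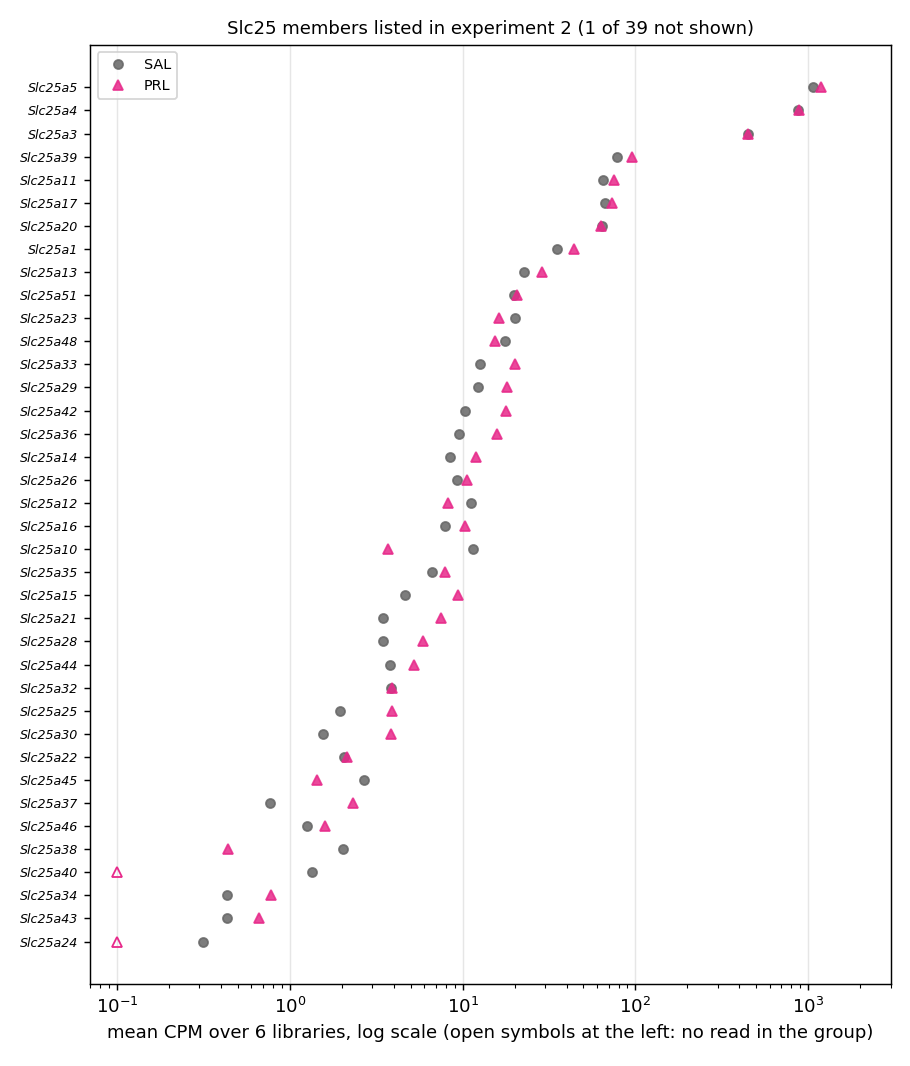
Mean CPM over 6 libraries (log axis) of the members listed in experiment 2 (1 of 39 not shown), for SAL (grey circles) and PRL (pink triangles); open symbols at the left edge mark a group without a read. The 3 abundant carriers stand at 449.7 CPM or more in both groups and no other member reaches 100 CPM on average.

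After the 3 abundant carriers came members for glutathione, dicarboxylates, cofactors, acylcarnitine and citrate. Slc25a39 stood at 78.3 ± 35.9 CPM in SAL (SD, n = 6) against 95.3 ± 49.1 CPM after PRL, with a log2 fold change of 0.22 ± 0.29. Slc25a11, the oxoglutarate/malate carrier of the malate-aspartate shuttle, stood at 65.1 ± 17.7 and 75.4 ± 20.55 CPM (log2 fold change 0.14 ± 0.24). Slc25a17 averaged 66.4 ± 25.2 CPM without and 73.4 ± 26.1 CPM with PRL, and Slc25a20 had 64.2 ± 36.1 and 62.9 ± 33.9 CPM. These 4 neighbours in the order of reads did not differ beyond their spread, and each overlapped between SAL and PRL. Slc25a1 stood lower, at 35.2 ± 11.5 CPM against 44.0 ± 24.1 CPM (log2 fold change 0.28 ± 0.32).

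Further members had lower levels. Slc25a13 stood at 22.7 ± 8.82 CPM in SAL against 28.8 ± 9.81 CPM after PRL. Slc25a23, a calcium-regulated carrier of ATP-Mg and phosphate, had 20.1 ± 18.3 and 16.2 ± 10.1 CPM. The NAD carrier Slc25a51 had 19.98 ± 10.05 and 20.7 ± 10.85 CPM. For Slc25a48 the means were 17.7 ± 12.05 and 15.5 ± 11.1 CPM. The basic amino acid carrier Slc25a29 had 12.3 ± 6.97 and 18.0 ± 9.08 CPM. The pyrimidine nucleotide carrier Slc25a33 ranged from 5.20 to 30.6 CPM in SAL (median 10.4) and from 15.8 to 23.0 CPM in PRL (median 19.8). For Slc25a33, 5 of 6 SAL libraries lay below every PRL library and the other lay above all of them. Its log2 fold change was 0.62 ± 0.40 (edgeR, adjusted p = 0.998). None of these members passed the test.

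Slc25a10, the dicarboxylate carrier that exchanges malate and succinate for phosphate, was the member with an unadjusted p under 0.05. It had 5, 6, 4, 5, 3 and 1 reads in the 6 SAL libraries and 5, 4, 1, 1, 0 and 0 reads in the 6 PRL libraries. In CPM it ranged from 3.20 to 18.3 in SAL (median 11.5) and from 0 to 8.37 in PRL (median 4.28), so the groups overlapped. The log2 fold change was -1.28 ± 0.55, a fold of 0.413 (interval 0.191 to 0.895; edgeR, adjusted p = 0.934). It was between -1.70 and -1.06 when any 1 library was left out, and without SAL replicate 2 or PRL replicate 6 the unadjusted p was above 0.05. It was 1 of 30 members tested, and its 35 reads were listed in experiment 2 alone.

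**Figure D4:**
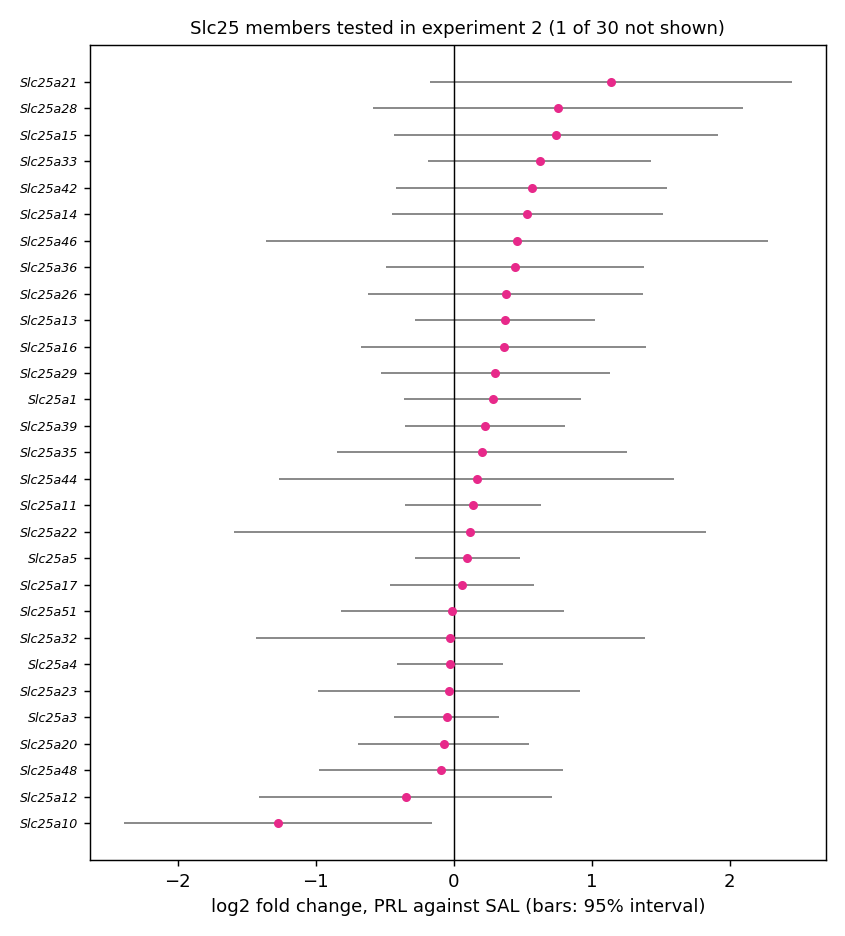
Log2 fold change of PRL against SAL (x axis) with its 95% interval for the members tested in experiment 2 (1 of 30 not shown), ordered by size. Values run from -1.28 for Slc25a10 to 1.14 for Slc25a21, and 29 of the 30 intervals in all hold 0.

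By role, the fitted changes after PRL spread to both sides of 0. Of the 9 tested carriers of nucleotides, cofactors and vitamins, 7 lay above 0 and 2 below, between -0.024 and 0.62, and all 9 intervals held 0. Of the 5 tested members grouped under other amino acids and glutathione, 4 lay above 0. The other was Slc25a48, at -0.093 ± 0.438, whose substrate was not examined here. The 4 carriers of di- and tricarboxylates held both ends of the family, with Slc25a10 at -1.28 and the oxodicarboxylate carrier Slc25a21 at 1.14 ± 0.65 (7 reads in SAL and 19 in PRL, edgeR, adjusted p = 0.998). The mitoferrin Slc25a28, an iron carrier, had 7 reads in SAL and 14 in PRL (0.75 ± 0.66). The 3 carriers of aspartate and glutamate lay between -0.35 (Slc25a12) and 0.37 (Slc25a13). The 2 tested members without a settled substrate, Slc25a35 and Slc25a46, lay at 0.21 ± 0.52 and 0.46 ± 0.90. The uncoupling protein relative Slc25a14 lay at 0.53 ± 0.49, and Slc25a23 and Slc25a20 at -0.034 ± 0.469 and -0.072 ± 0.306. Altogether 21 of 30 members lay above 0, against 52.7% of all genes, with a median of 0.19 against 0.03. Scaled by library totals alone, 25 of the 30 lay above 0. With 1 library left out the count ran from 18 to 24, and it was 18 without SAL replicate 6, with a median of 0.10. Under a filter of 12 of 12 libraries 10 of 17 members lay above 0, with a median of 0.08. The 18 tested genes of a matrix and respiratory chain list, given below, had a median of 0.17.

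Slc25a30, named for the kidney as kidney mitochondrial carrier protein, had too few reads for a test. Its SAL libraries had 0, 0, 0, 0, 2 and 1 reads, and its PRL libraries had 3, 3, 0, 0, 0 and 5. The reads lay in 2 SAL and 3 PRL libraries, so no level could be set apart from 0 in most animals. The testis-type ADP/ATP carrier Slc25a31 was not listed in either experiment, so it has no values here.

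The balance between both ADP/ATP carriers differed by experiment. Slc25a4 made up 11.9% to 33.3% of the reads of Slc25a4 and Slc25a5 in the 12 libraries of experiment 1 and 39.5% to 50.4% in the 12 libraries of experiment 2, with no overlap. By group it was 19.0% ± 7.45 in LP (SD, n = 4), 27.6% ± 5.47 in SP12wk, 23.3% ± 7.13 in SP28wk, 45.2% ± 4.00 in SAL (SD, n = 6) and 42.8% ± 3.15 in PRL. Within an experiment the groups overlapped. Slc25a3 shifted too, from 33.4% ± 5.23 of the reads of the 3 carriers in experiment 1 (SD, n = 12) to 18.6% ± 2.61 in experiment 2. No test was made between experiments, since sex, flow cell, depth, injection and time in SP cannot be told apart. Both ADP/ATP carriers are close paralogs, and how hamster reads were divided between their mouse transcripts was not tested.

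**Figure D5:**
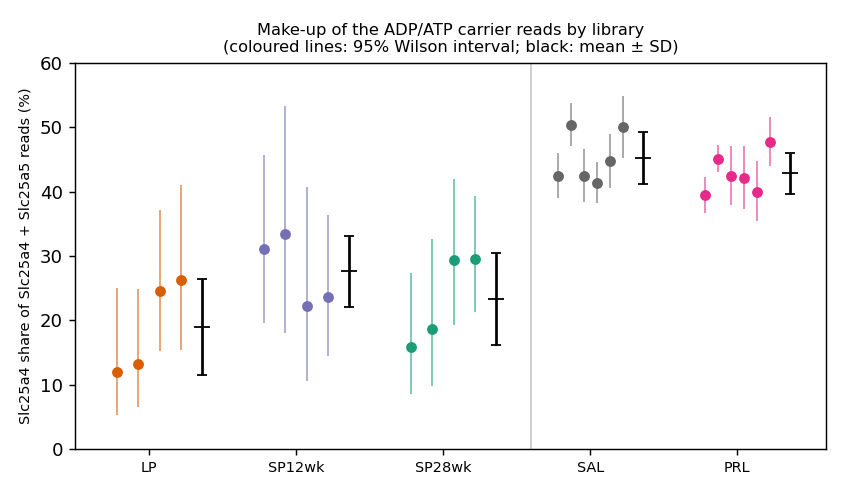
Share of Slc25a4 (percent, y axis) among the reads of Slc25a4 and Slc25a5 in each library, with its 95% Wilson interval, and the mean and SD of each group in black. All 12 libraries of experiment 1 lie at 33.3% or below and all 12 of experiment 2 at 39.5% or above.

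Across the 12 libraries of experiment 2, log2 CPM of Slc25a5 and Slc25a4 varied together (Pearson's r = 0.778, permutation p = 0.0018, adjusted p = 0.0108 over 6 relations; Spearman's rho = 0.776, permutation p = 0.0041, adjusted p = 0.0246). With the 2 most extreme Slc25a5 libraries left out, r was 0.640, and without SAL replicate 6, an omission chosen after seeing the data, it was 0.743 (permutation p = 0.0162; rho = 0.709, permutation p = 0.0175). Within the 6 SAL libraries r was 0.803 (exact permutation p = 0.0306, adjusted p = 0.183), and within the 6 PRL libraries it was 0.790 (exact permutation p = 0.0639, adjusted p = 0.192). In the PRL group it fell to -0.055 once the 2 most extreme libraries were left out, so the relation there rests on those. In experiment 1 the same pair gave r = 0.066 over 12 libraries (permutation p = 0.826, adjusted p = 0.838). The other relations among the 3 carriers did not pass the adjusted threshold in either experiment.

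Other proteins of mitochondrial membrane transport were taken from a list of 28 genes, of which 10 could be tested in experiment 1 and 22 in experiment 2. None passed an adjusted p of 0.05 in any comparison. Vdac1, the outer membrane channel through which nucleotides pass, stood at 854 ± 314 CPM in LP (SD, n = 4). It had 391 ± 158 CPM after 12 weeks and 575 ± 176 CPM after 28 weeks. Its log2 fold change of SP12wk against LP was -0.85 ± 0.50 (edgeR, adjusted p = 0.670). Mpc2, a subunit of the pyruvate carrier, stood at 287 ± 150 CPM in LP and 636 ± 239 CPM in SP28wk, a log2 fold change of 1.42 ± 0.51 (edgeR, adjusted p = 0.381). The uncoupling proteins belong to the same protein family but are listed under other names. Of them, Ucp2 had 8 reads in SAL and 40 in PRL (log2 fold change 1.98 ± 0.59, edgeR, adjusted p = 0.301), and Ucp1 had 8 and 28 (1.73 ± 0.81, edgeR, adjusted p = 0.994). Slc8b1, the mitochondrial sodium/calcium exchanger, had 15 and 6 (-1.42 ± 0.68, edgeR, adjusted p = 0.994). The study itself displayed Slc8b1 from these samples, so its values here are not independent evidence of a direction. Ucp2, Ucp1 and Slc8b1 were the 2 higher and the 1 lower of the 22 genes tested at an unadjusted p under 0.05 after PRL. The share over all genes was 4.88%. The median over the 22 tested was 0.12, beside 0.03 over all genes. Ucp1 and Cidea, markers of brown fat, summed to 18.3 to 46.8 CPM in SAL and 23.0 to 132 CPM in PRL. Their part in the values after PRL was not tested.

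In a list of 20 gene names of the matrix and respiratory chain, 16 could be tested in experiment 1 and 18 in experiment 2, and none passed. Atp5a1 and Atp5b were also entered under their other names, Atp5f1a and Atp5f1b, which had no read listed. The list thus held 18 distinct genes. Their summed level was 6613 ± 1690.5 CPM in LP, 6198 ± 915 CPM after 12 weeks and 6218 ± 351 CPM after 28 weeks of SP. In experiment 2 it was 6117 ± 521 CPM without and 6441 ± 839 CPM with PRL, and the groups of each experiment overlapped. Markers of the proximal tubule were present in every library, at 2213 to 4217 CPM in experiment 1 and 1204 to 2350.2 CPM in experiment 2, with no read listed for Cubn. The collecting duct marker Aqp2 had no read listed in experiment 1, where 3 reads in 1 library are worth 52.1 CPM or more. Haemoglobin genes and Alas2 summed to 14205 to 28899 CPM in LP libraries. They reached 17519 to 44112 CPM after 12 weeks and 20995 to 33240.0 CPM after 28 weeks. Hba-a1 and Hba-a2 had near-equal reads in LP (512 and 497), as had Hbb-bs and Hbb-bt (479 and 479). A read may thus be counted on both genes of a pair, and the sums may be too high. The part of these blood genes in the shares of the carriers was not tested.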

How the data were processed

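Guppy (basecalling), Porechop (trimming), Filtlong (quality filter) and Minimap2 (alignment to the mouse genome) were run by the authors, and the labels also name Salmon. For each experiment they deposited 1 table of estimated counts, unscaled, with a row for each RefSeq transcript of the mouse. The sources used here do not say how a read was shared among transcripts, and 83.9% of transcripts in experiment 1 and 70.9% in experiment 2 had the same counts as another. The study names a direct cDNA kit and the labels a PCR-cDNA kit.

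Estimated counts were rounded, and 1 transcript per gene entered edgeR 4.0.16 (R 4.3.3; TMM, quasi-likelihood test, 1 model per experiment, no covariate, Benjamini-Hochberg over all genes). Genes needed a count in 4 of 12 libraries (experiment 1) or 6 of 12 (experiment 2). CPM are counts per 1000000 of the library total over these transcripts. A gene without reads in a group was bounded by 3 counts over the group, scaled by library totals without TMM. Alternatives were DESeq2 1.42.0, limma 3.58.1 (voom), other scalings and filters, sums over transcripts, a replicate block and each library left out. The scripts were tested on simulated data.

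Named members were the adenine nucleotide and phosphate carriers, the 15 with the highest mean CPM in SAL, those with an unadjusted p under 0.05, and Slc25a30. Other members are given by role, range or count. For 1 member, values are not reported here; it stays in the counts. Slc25a12, Slc25a21, Slc25a28, Slc25a35, Slc25a46, Vdac1, Mpc2, Ucp1, Ucp2 and Slc8b1 were named after their values were seen. Members and gene lists were chosen with earlier results of these data known. Samples were grouped by their labels. Replicates with the same number were not paired (correlation of deviations from -0.127 to 0.243 in experiment 1 and from -0.283 to 0.336 in experiment 2). No 2 libraries of a group were copies (chi-square per degree of freedom of 1.89 to 9.45 in experiment 1 and 2.13 to 10.1 in experiment 2).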

Additional observations from a re-analysis of the deposited data

Results flagged for a closer look

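Of 65 groups of a named member that were examined, 6 held a library whose gap to its nearest neighbour was large for the range of the group. The cut-off is meant to flag about 1 in 20 groups by chance. This rate does not hold for groups with few reads, so the count of flags is not set against it. Slc25a3 stood at 1344 CPM (34 reads) in SP28wk replicate 1, and the next library at 972.5 CPM. Slc25a13 stood at 39.8 CPM (13 reads) in SAL replicate 5 against 22.8 CPM in the next library. In the same animal Slc25a33 stood at 30.6 CPM (10 reads) against 13.7 CPM. Slc25a36 stood at 34.5 CPM (6 reads) in PRL replicate 5 against 15.9 CPM. Finally, Slc25a20 in LP replicate 1 (94.1 CPM) and Slc25a36 in SP12wk replicate 1 (81.8 CPM) each rested on 2 reads, with the other libraries of the group at 0. In such a group the gap always equals the range, so both flags follow from the sparse reads.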

How the results depend on the processing

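No member passed an adjusted p of 0.05 in any comparison under any of the 21 alternatives. Scaled by library totals without TMM, the log2 fold change of Slc25a4 turned to -0.10 in SP28wk against LP, -0.058 in SP12wk against LP, -0.042 between both SP groups and 0.025 in PRL against SAL, and that of Slc25a3 turned to 0.0014 in PRL against SAL. This scaling moved the median over all genes from 0.00 to -0.17 in SP12wk against LP and from 0.18 to -0.16 in SP28wk against LP. Slc25a4 in SP28wk against SP12wk also turned with sums over transcripts (-0.0049), DESeq2 size factors in edgeR (-0.035) and DESeq2 (-0.036). The cause of these turns was not tested beyond the change of scale. With 1 library left out, signs turned within -0.25 to 0.021 (Slc25a3, SP12wk against LP), -0.040 to 0.47 (Slc25a4, SP12wk against LP), -0.054 to 0.26 (Slc25a4, SP28wk against SP12wk), -0.17 to 0.032 (Slc25a4, PRL against SAL), -0.010 to 0.14 (Slc25a5), -0.099 to 0.16 (Slc25a17), -0.25 to 0.11 (Slc25a20) and -0.0015 to 0.44 (Slc25a1), the last 4 in PRL against SAL.

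The replicate block left 0 members called in each comparison, with Slc25a5 at -0.56 in SP12wk against LP and 0.10 in PRL against SAL. Over all genes the block moved the calls of PRL against SAL from 0 to 94. That count was 92 with no filter and between 0 and 50 with 1 library left out. In SP28wk against LP, the 11 calls became 30 in limma-voom, 2 in DESeq2 and 0 with sums over transcripts. In experiment 1, members other than the 3 abundant carriers had 21 reads or fewer each; the parts of depth and of the spread between animals were not tested.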
